A study of Mus musculus with 4 samples.

Results

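The 10 genes described here make up the core of MHC class I antigen presentation in the mouse: the heavy chains H2-K1 and H2-D1, the light chain B2m, the peptide transporter pair Tap1 and Tap2, the loading factor Tapbp, the transcriptional activator Nlrc5, and the immunoproteasome subunits Psmb8, Psmb9 and Psmb10. They were taken by symbol, without use of measured values, and are 10 of the 31053 genes in the deposited matrix. The hepatic CD45-enriched cells came from male mice with an age of 8 weeks. The mice carried liver metastases of a mouse colon carcinoma line under surgical stress. All livers were taken at the same time after tumour injection. There were 2 Sed libraries and 2 Ex libraries, the latter from the arm with preoperative exercise. The 10 genes were measured across 22 cell classes, and Sed mice were compared with Ex mice in 11 of these. In the classes present in all 4 libraries, Tap1, Tapbp, Psmb8 and Psmb9 were highest in dendritic cell classes and Psmb10 in macrophage-like cells, while Tap1, Psmb8 and Psmb9 were lowest in endothelial-like cells. The dendritic cell classes concerned (mature DC-like, cDC1-like and pDC-like) were small, with 12 to 88 cells per library. Of 110 comparisons of Sed with Ex (10 genes in 11 classes), 1 passed the test, against 1.74% of all genes: Tap1 fell in endothelial-like cells. At an unadjusted p under 0.05 there were 30, against 14.1% of all genes, and DESeq2 called the same 1. Without the filter on low counts the main test called 8, but it also tested and called more genes in each of the 11 classes. In endothelial-like cells it called 1470 of 14930 genes, against 947 of 8948, which was not a larger share. In macrophage-like cells it called 668 of 15912 genes, against 11 of 9441. Without the library Sed 2, more of all genes were likewise called in each of the 11 classes. The change of Tap1 in macrophage-like cells, where both Ex libraries lay above both Sed libraries, differed from that in 5 other classes, but only the difference from endothelial-like cells passed under each of the 10 alternatives run on these contrasts.

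MHC class I molecules display peptides from inside the cell to CD8 T cells. The proteasome cuts cytosolic proteins into peptides, the Tap1-Tap2 transporter moves these into the endoplasmic reticulum, and tapasin, the product of Tapbp, holds the empty heavy chain and B2m beside the transporter until a peptide binds. Interferon gamma raises the whole set, in part through Nlrc5, and exchanges the constitutive catalytic proteasome subunits Psmb5, Psmb6 and Psmb7 for Psmb8, Psmb9 and Psmb10. In the liver, Kupffer cells and sinusoidal endothelial cells are known to present antigen to T cells that pass through the sinusoids.

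Of the 10 genes, 7 lie on chromosome 17, where H2-K1 and H2-D1 flank the region that holds Tap1, Tap2, Psmb8 and Psmb9. All 10 are annotated as protein coding. In GRCm38 (GENCODE vM21) H2-K1 spans chr17:33996017-34000347 on the minus strand, H2-D1 chr17:35262730-35267499 on the plus strand, Tapbp chr17:33915899-33929292, Psmb9 chr17:34181987-34187764 on the minus strand, Tap1 chr17:34187553-34197225, Psmb8 chr17:34197721-34201454 and Tap2 chr17:34203527-34216321. B2m lies at chr2:122147686-122153083, Nlrc5 at chr8:94434356-94527272 and Psmb10 at chr8:105935735-105938444 on the minus strand. Tap1 and Psmb9 start close to each other on opposite strands, and their annotated ranges overlap at this end. The sequences below come from the RefSeq promoter table of build GRCm38.p6, which held entries for 8 of the 10 genes. They are shown because the 2 heavy chain genes share upstream sequence, B2m matched the interferon and kappa B letters searched, and Tap1 and Psmb9 share the interval between their starts.

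H2-K1, the 250 bases before a RefSeq start, chr17:34000348-34000597, minus strand, with the 47 bases it shares with H2-D1 in capitals: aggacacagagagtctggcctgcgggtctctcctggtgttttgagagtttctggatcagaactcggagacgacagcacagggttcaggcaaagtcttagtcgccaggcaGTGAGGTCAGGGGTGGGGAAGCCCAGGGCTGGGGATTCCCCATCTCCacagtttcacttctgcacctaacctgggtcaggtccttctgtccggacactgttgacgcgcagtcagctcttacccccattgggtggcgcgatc
B2m, the 250 bases before its RefSeq start, chr2:122147437-122147686, plus strand, with the letters of the 3 motifs found in capitals: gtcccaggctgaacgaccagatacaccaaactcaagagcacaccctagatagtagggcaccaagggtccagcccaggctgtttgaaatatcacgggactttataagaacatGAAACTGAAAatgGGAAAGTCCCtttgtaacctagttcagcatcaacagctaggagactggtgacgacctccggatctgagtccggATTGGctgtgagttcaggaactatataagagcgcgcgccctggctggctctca
Tap1 and Psmb9, the first 30 of the 225 bases between their RefSeq starts, counted from the Psmb9 side, chr17:34187331-34187360, plus strand, with CCAAT in capitals: tttCCAATcagcggctgcgcgcggtgcagg
Psmb8, 29 bases around a GAS match, chr17:34198088-34198116, plus strand, with the match in capitals: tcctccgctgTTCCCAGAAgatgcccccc

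The run in capitals was the longest stretch of identical letters in the upstream 250 bases of H2-K1 and H2-D1. It lay 141 to 95 bases before the H2-K1 start and 201 to 155 bases before the H2-D1 start, at chr17:35262893-35262939. The motifs searched on both strands were GAAA, any 2 bases and GAAA for the interferon-stimulated response element (ISRE), TTCNNNGAA for the interferon gamma activated site (GAS), GGG, any 2 bases and TTTCC for kappa B, and CCAAT. In the 250 bases before and 50 after a start, these letters were found in 3.44%, 8.3%, 1.63% and 37.4% of 32851 promoters. B2m held an ISRE match 139 bases before its start, a kappa B match 126 bases before it and a CCAAT match. Psmb8 held a GAS match 97 bases before a RefSeq start that lies inside the GENCODE range of the gene, so the match also lies inside that range. The run in capitals shared by H2-K1 and H2-D1 holds GGGGATTCCCC, which has GGG, 2 bases and TTCC but does not match the letters searched for kappa B. Other spellings of the motifs were not counted, so a gene without a match can still hold such letters. A match describes the letters in the window and is not evidence of binding.

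The libraries were 10x 3′ libraries of hepatic immune cells from male mice with an age of 8 weeks. The mice carried liver metastases of MC38, a line of mouse colon carcinoma, under surgical stress, and livers were taken 3 weeks after tumour injection. Cells were enriched with CD45 beads from the non-parenchymal fraction. There were 2 Sed libraries and 2 Ex libraries, the latter from the arm with preoperative exercise that the protocol names PEx. The strain is not given in the labels. Nor do they tie each library to an animal of its own, and the p-values measure the spread between these libraries, which may be technical. The libraries held 23918964 to 41027638 UMIs, and 4097 to 7141 cells were kept in each, with median depths of 3284 to 3749 UMIs. The median mitochondrial share was 2.61% and 2.95% in Sed and 3.92% and 4.35% in Ex. Pairs of libraries shared 7 to 25 barcode sequences. Levels are given in CPM, the UMIs of a gene per 1000000 UMIs of a class in a library, and log2 changes run from Sed to Ex with the standard error.

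Cell classes carry the ending -like because they rest on markers alone, and the 10 genes and their pathway were left out of the clustering. Ptprc, which encodes CD45, was at 32.7 ± 19.0 CPM (SD, n = 4 libraries) in endothelial-like cells and at a mean of at least 315 CPM in each other class, so the endothelial-like cells went against the labelled enrichment. H2-K1, H2-D1 and the H2-Q and H2-T genes are related genes. Where their sequences are alike, reads could be split between them, so values of these genes are uncertain to that extent. Tap1 and Psmb9 are on opposite strands, and whether the counting used strand is not given in the sources used here. Free RNA was read from B cell transcripts. In Kupffer-like cells it made up 3.35% and 6.34% of the UMIs in Sed 1 and Sed 2 and 8.74% and 8.96% in Ex 1 and Ex 2. In macrophage-like cells it made up 4.62% to 9.30%.

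H2-K1 and H2-D1, the classical heavy chains, had different distributions over the classes. Over the 17 classes with all 4 libraries, H2-K1 ranged from 2925 ± 527 CPM in ILC1-like cells to 541 ± 147 CPM in classical monocyte-like cells, a ratio of 5.41 (SD, n = 4 libraries of both groups). NK-like cells were at 2669 ± 359 CPM, Treg-like cells at 2459.5 ± 520.0 CPM and CD4 T-like cells at 2411 ± 545 CPM. Lymphocytes other than B cells therefore filled the upper ranks, together with mature DC-like cells at 2677 ± 414 CPM and CD8 T-like cells at 2782 ± 404 CPM (n = 3). Kupffer-like cells were at 1539 ± 178 CPM, B-like cells at 1178 ± 198 CPM, cDC1-like cells at 858 ± 61.5 CPM and neutrophil-like cells at 599 ± 242 CPM. H2-D1 varied less, from 2830.3 ± 473 CPM in mature DC-like cells to 1251 ± 339 CPM in classical monocyte-like cells, a ratio of 2.26. Its level was 2507 ± 234 CPM in NK-like cells, 2337 ± 421 CPM in Kupffer-like cells and 1857 ± 292 CPM in neutrophil-like cells. The ranges of neighbouring classes overlapped in all 21 steps of the order of each heavy chain.

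The share of H2-K1 in the UMIs of both heavy chains describes this shift within a pair. It was 54.2% ± 7.0 in CD4 T-like cells, 52.6% ± 3.1 in ILC1-like cells and 51.5% ± 3.4 in NK-like cells (SD, n = 4). Myeloid classes lay lower, with 43.8% ± 2.2 in macrophage-like cells, 39.9% ± 4.4 in Kupffer-like cells, 34.4% ± 2.4 in patrolling monocyte-like cells, 30.2% ± 1.5 in classical monocyte-like cells and 23.8% ± 4.5 in neutrophil-like cells. The share compares transcripts of different length, so only its differences between classes or groups are read.

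B2m, the light chain of every class I molecule, was highest in mature DC-like cells at 4213 ± 536 CPM, followed by macrophage-like cells at 3634 ± 423 CPM and Kupffer-like cells at 3591 ± 376 CPM. It was lowest in neutrophil-like cells at 1366 ± 149.7 CPM and B-like cells at 1448 ± 224 CPM. No library of Kupffer-like cells came as low as any library of neutrophil-like cells. In mature DC-like cells of Sed 1, where the share of free RNA came to 51.4%, such RNA could give 26.1% of the B2m level.

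Tap1 and Tap2 encode the subunits of the peptide transporter. Tap1 ranged from 353 ± 75.4 CPM in mature DC-like cells and 262 ± 43.0 CPM in cDC1-like cells to 54.7 ± 29.3 CPM in endothelial-like cells, a ratio of 6.45. Macrophage-like cells had 229 ± 56.8 CPM and Kupffer-like cells 121 ± 32.0 CPM. Tap2 was at 175 ± 46.2 CPM in cDC1-like cells, 175 ± 38.7 CPM in gamma-delta T-like cells and 168 ± 18.8 CPM in Treg-like cells. Its lowest level was 55.5 ± 8.52 CPM in Kupffer-like cells, beside classical monocyte-like cells at 56.9 ± 4.36 CPM. Kupffer-like cells were thus at the bottom of the order for one transporter subunit and in its middle for the other.

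Tapbp, the tapasin gene, had another order: 381 ± 46.0 CPM in pDC-like cells, 362 ± 59.1 CPM in mature DC-like cells, 276 ± 66.5 CPM in macrophage-like cells and 238 ± 57.7 CPM in Kupffer-like cells. CD4 T-like cells at 124 ± 48.3 CPM, B-like cells at 115 ± 14.9 CPM and gamma-delta T-like cells at 95.1 ± 72.3 CPM (55 UMIs) lay low. Treg-like cells were at 177 ± 53.5 CPM and the remaining T cells at 151 ± 41.2 CPM. Nlrc5, the activator of class I promoters, had an order of its own. It was at 108 ± 27.8 CPM in mature DC-like cells, 86.4 ± 36.0 CPM in CD4 T-like cells, 85.8 ± 19.7 CPM in Treg-like cells and 85.7 ± 22.8 CPM in ILC1-like cells, against 20.7 ± 6.29 CPM in Kupffer-like cells, 17.9 ± 3.37 CPM in cDC1-like cells and 10.9 ± 2.45 CPM in endothelial-like cells. The correlation of Tapbp with Nlrc5 over the 22 class means was the lowest among the members, at a Pearson r of -0.089.

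The immunoproteasome subunits were not distributed alike. Psmb8 ranged from 1476 ± 189.9 CPM in mature DC-like cells and 1301 ± 274 CPM in cDC1-like cells to 205 ± 16.0 CPM in neutrophil-like cells and 171 ± 36.9 CPM in endothelial-like cells. Psmb9 was at 739 ± 102 CPM in cDC1-like and 716 ± 89.4 CPM in mature DC-like cells, with a gap below them, since the libraries of mature DC-like cells did not overlap those of pDC-like cells, the next class at 416 ± 95.5 CPM. Psmb10 was spread more evenly, from 291 ± 22.5 CPM in macrophage-like cells to 101 ± 15.4 CPM in B-like cells, except for neutrophil-like cells at 28.1 ± 6.14 CPM. Free RNA could give 67.6% of the Psmb10 level in the neutrophil-like cells of Sed 2, so the neutrophil level is an upper value.

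**Figure D1:**
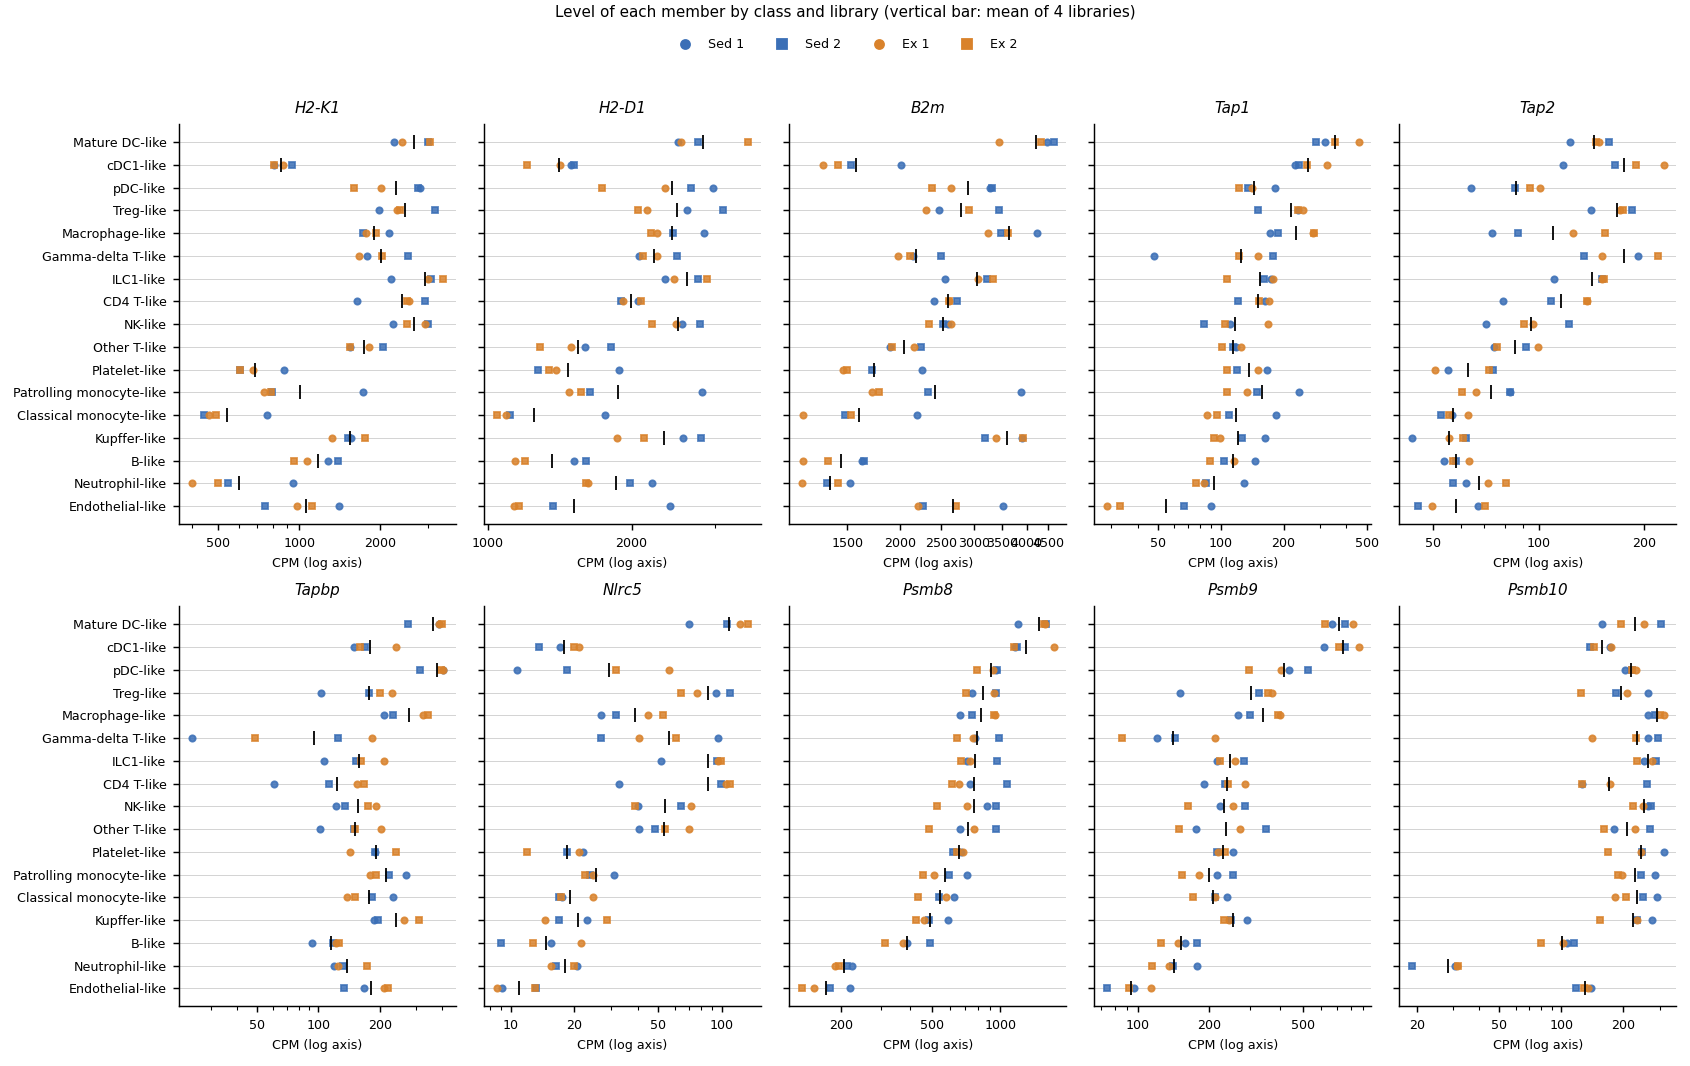
CPM of each of the 10 genes (log axes) in the 17 classes with all 4 libraries, with 1 point per library (Sed blue, Ex orange) and a vertical bar at the mean; classes are ordered by Psmb8. Mature DC-like and cDC1-like cells lead for Psmb8 and Psmb9, while Psmb10 falls to 28.1 CPM in neutrophil-like cells.

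Each immune subunit takes the place of a constitutive one, so its share of the pair's UMIs gives a value that does not depend on the library total. Psmb8 made up 90.5% ± 2.9 of the Psmb8 and Psmb5 UMIs in mature DC-like cells, 83.6% ± 4.5 in macrophage-like cells, 75.1% ± 2.2 in Kupffer-like cells and 58.7% ± 2.9 in endothelial-like cells (SD, n = 4). Psmb9 made up 78.6% ± 6.4 of the Psmb9 and Psmb6 UMIs in mature DC-like cells, 57.9% ± 1.8 in Kupffer-like cells and 38.3% ± 6.7 in endothelial-like cells. Psmb10 made up 79.5% ± 9.0 of the Psmb10 and Psmb7 UMIs in pDC-like cells, 71.1% ± 2.2 in Kupffer-like cells and 39.5% ± 4.4 in neutrophil-like cells. Neutrophil-like cells stood apart between the pairs, since their Psmb9 share of 76.0% ± 2.2 was among the highest and their Psmb10 share the lowest.

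**Figure D2:**
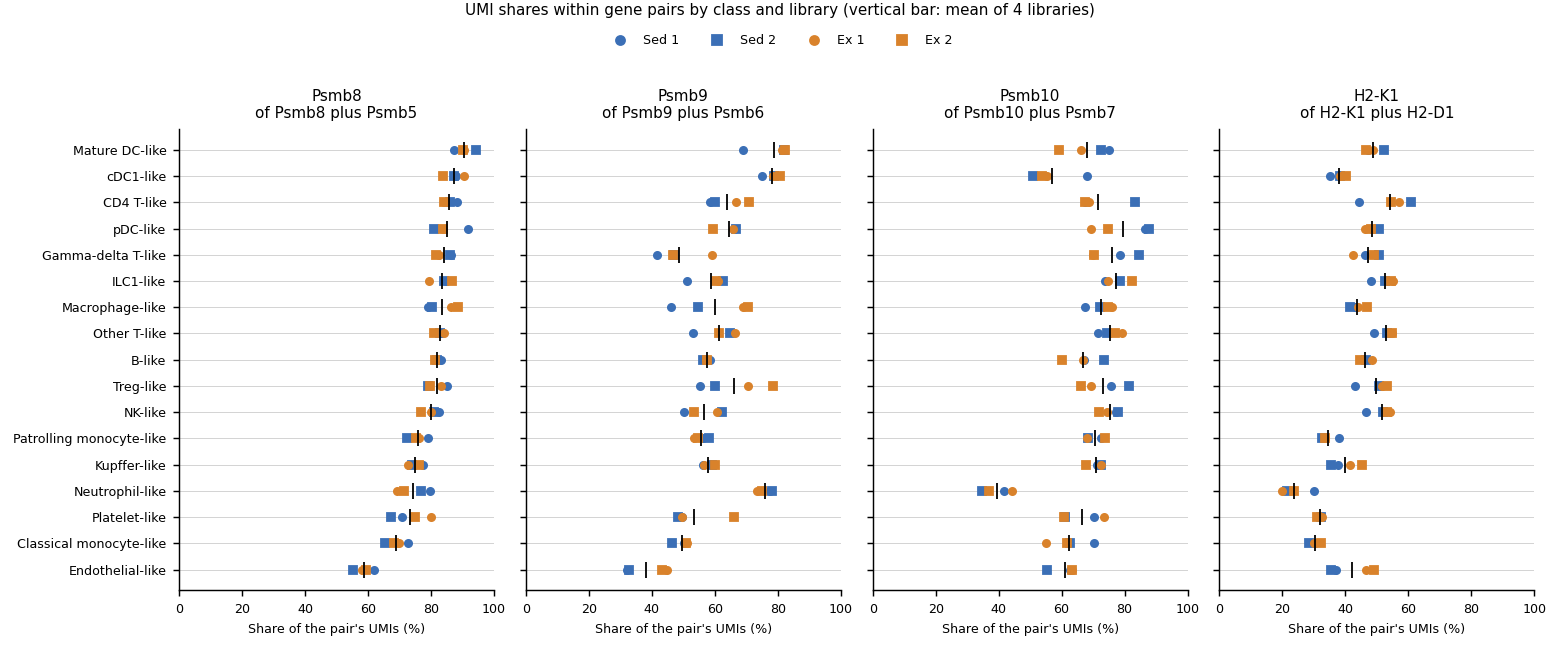
Share of the first gene in the UMIs of a pair (%, 0 to 100) in 17 classes, with 1 point per library (Sed blue, Ex orange) and a vertical bar at the mean. Endothelial-like cells have the lowest Psmb8 and Psmb9 shares, 58.7% and 38.3%, and neutrophil-like cells the lowest Psmb10 share, 39.5%, and the lowest H2-K1 share, 23.8%.

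Over the means of the 22 classes, Psmb8 and Psmb9 had the highest correlation among the members, with a Pearson r of 0.87 on the log2(CPM + 1) scale, and Tap1 and Psmb9, the pair with the shared upstream interval, had an r of 0.84. Among 9696 genes compared, those most like H2-K1 were its relatives H2-Q7 (r = 0.94) and H2-Q6 (r = 0.90), with which reads could be shared. Psmb9 was most like the proteasome activator genes Psme1 (r = 0.94) and Psme2 (r = 0.87). Tap1 was most like Phf11a, Psme1 and Psme2, with r from 0.80 to 0.82, and Psmb8 most like Zbtb8os (r = 0.94), Endod1 and Psme1. Psmb10 was most like Kars, Ola1 and Atp5d, with r near 0.90. The classes come from the same 4 libraries and share their depth, so these values are descriptions.

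Kupffer-like cells are the class the study is about, and none of the 10 genes passed the test between Sed and Ex there (edgeR quasi-likelihood, Benjamini-Hochberg over 7309 genes). The class numbered 312 and 1035 cells in Sed 1 and Sed 2 and 453 and 106 in Ex 1 and Ex 2. Of all genes tested 0.383% were called, and at an unadjusted p under 0.05 there were 1 of 10 members and 9.41% of all genes. DESeq2 called no member there either. In Kupffer-like cells of Ex mice Tapbp lay above Sed, and H2-D1, Tap1, Psmb8 and Psmb9 lay below it without overlap of the libraries, against 17% of all genes above and 26.1% below. Over the whole class the count of members on either side was therefore near that of all genes. Within the larger of its clusters, fitted after the values were seen, 6 of 9 members lay below Sed and 1 above, against 26.8% and 17.2% of all genes. Within the smaller, with 26 cells in Ex 2, 4 of 10 lay below and 3 above, against 20.1% and 31.0%. No member was called in either cluster.

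Tapbp was at 187 and 194 CPM in the Kupffer-like cells of Sed 1 and Sed 2 and at 261 and 309 CPM in those of Ex 1 and Ex 2. Both Ex libraries were higher, with a change of 0.61 ± 0.25 (adjusted p = 0.477 in edgeR). Tap1 was at 163 and 127 CPM in Sed and at 98.9 and 93.4 CPM in Ex, a change of -0.53 ± 0.28 (adjusted p = 0.597 in edgeR). H2-D1 was at 2570.2 and 2793 CPM in Sed and 1865 and 2119.6 CPM in Ex, a change of -0.39 ± 0.28. Psmb8, at 586 and 487 CPM against 462 and 426 CPM, changed by -0.23 with a 95% interval from -0.85 to 0.40. H2-K1, B2m, Tap2, Nlrc5 and Psmb10 overlapped between the groups, with changes from -0.31 to 0.15. The share of free RNA in Kupffer-like cells was higher in both Ex libraries than in both Sed libraries. Its part in these values was not tested.

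The immune subunit shares in Kupffer-like cells did not separate the groups at the settings used. The Psmb8 share was 77.6% and 74.0% in Sed and 72.6% and 76.1% in Ex, the Psmb9 share 56.2% and 59.0% in Sed and 56.6% and 60.0% in Ex, and the Psmb10 share 71.2% and 72.6% in Sed and 72.5% and 67.9% in Ex. All 3 overlapped, with a two-sided exact permutation p of 0.667 each, and 2 against 2 libraries cannot go below 0.333. Other settings did separate them, at that p: the Ex minus Sed difference of the Psmb8 share was -8.37 percentage points at Leiden resolution 2 and -2.61 with the stricter cell filter, that of the Psmb9 share 3.69 at resolution 2, and that of the Psmb10 share -5.13 with doublets kept and -5.40 at resolution 0.5. The H2-K1 share of the heavy chain pair was 37.7% and 35.3% in Sed and 41.5% and 45.3% in Ex, without overlap and at that smallest p. This share was higher in both Ex libraries in 7 of the 17 classes with all 4 libraries and lower in both in 1. The Kupffer-like class held a cluster of low depth and one of high depth, and Ex 1 held 15173 CPM of erythroid marker transcripts against 16.2 to 489 CPM in the other libraries; the part of these in the result was not tested.

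Macrophage-like cells are the macrophages marked by Trem2, Gpnmb, C1q and Apoe rather than by Kupffer genes. Tap1, Psmb8 and Psmb9 lay above Sed here and below it in Kupffer-like cells, while Tapbp lay above and H2-D1 below in both. By the test of the difference between these classes only Tap1 passed, with adjusted p of 0.221 for Psmb8 and 0.275 for Psmb9 (edgeR). In macrophage-like cells 7 of the 10 genes lay above Sed in both Ex libraries, against 21.1% of all genes tested. These were Tap1, Tap2, Tapbp, Nlrc5, Psmb8, Psmb9 and Psmb10. H2-D1 lay below, against 29.2% of all genes, and H2-K1 and B2m overlapped. The median change of the 10 members was 0.50, and that of all 9441 genes was -0.01. None of the 10 passed the adjusted test of edgeR or DESeq2, in a class where edgeR called 0.117% of all genes, and 6 of the 10 had an unadjusted p under 0.05 in edgeR, against 14.5% of all genes. Without Sed 2, Tap1, Tap2 and Tapbp changed by 0.73, 0.96 and 0.71. The median change depended on how finely the cells were clustered: at Leiden resolution 2 the class held 248 and 464 cells in Sed and 359 and 75 in Ex in place of 246 and 354 and 788 and 301, the median change was -0.17 and Tap1 changed by 0.09.

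Tap1 was at 172 and 188 CPM in the macrophage-like cells of Sed 1 and Sed 2 and at 275 and 281 CPM in Ex 1 and Ex 2, a change of 0.67 ± 0.19 (adjusted p = 0.178 in edgeR). Tap2 was at 73.4 and 87.4 CPM in Sed and 125 and 155 CPM in Ex, a change of 0.84 ± 0.20 (adjusted p = 0.126 in edgeR). Both transporter subunits were thus higher in both Ex libraries, by amounts larger than the spread within each group. Tapbp was at 208 and 230.2 CPM in Sed and 322 and 342 CPM in Ex, a change of 0.65 ± 0.19. Nlrc5, read from few UMIs, was at 26.9 and 31.4 CPM in Sed and 44.8 and 52.8 CPM in Ex, a change of 0.78 ± 0.22.

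Among the immune subunits, Psmb8 was at 663 and 750.1 CPM in Sed and 947 and 935 CPM in Ex (0.46 ± 0.17), and Psmb9 at 266 and 298 CPM in Sed and 402 and 392 CPM in Ex (0.54 ± 0.19). Psmb10 moved least, from 262 and 285 CPM to 314 and 302 CPM (0.22 ± 0.19). The heavy and light chains did not follow. B2m was at 4225 and 3482 CPM in Sed and 3231 and 3599.8 CPM in Ex, and H2-K1 at 2158 and 1725 CPM in Sed and 1768 and 1927 CPM in Ex, so the groups overlapped for both. Against their constitutive partners, the Psmb8 share went from 79.2% and 80.4% in Sed to 86.3% and 88.5% in Ex, the Psmb9 share from 46.2% and 54.8% to 69.0% and 70.5%, and the Psmb10 share from 67.4% and 72.3% to 75.8% and 74.8%. All 3 shares were higher in both Ex libraries, at the smallest two-sided exact permutation p of 0.333. Exact 95% binomial intervals, which cover counting error only, ran from 43.4% to 49.1% for the Psmb9 share of Sed 1 and from 52.3% to 57.3% for that of Sed 2, so the Sed libraries differed from each other by more than counting error.

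The macrophage-like class was made of a larger cluster of 218 and 179 cells in Sed and 688 and 276 in Ex, and a smaller one of 28 and 175 cells in Sed and 100 and 25 in Ex. Within the larger cluster alone, chosen after the values were seen, Tap1 rose from 165 and 184 CPM to 286 and 287 CPM (0.76 ± 0.18, adjusted p = 0.0474 in edgeR), in a fit that called 263 of 8807 genes. The same 7 genes lay above Sed there, with Tap2 at 0.81 ± 0.20 and an adjusted p of 0.0535 in edgeR. Within the smaller cluster Tap1 was at 224 and 193 CPM in Sed and 203 and 213 CPM in Ex, H2-D1, B2m, Psmb8, Psmb9 and Psmb10 lay below Sed, and Tap2, Tapbp and Nlrc5 lay above it. The pattern of the whole class for Tap1, Psmb8, Psmb9 and Psmb10 was therefore that of the larger cluster. The summed macrophage markers of the class were at 33630.2 and 44292 CPM in Sed and 21920.1 and 17549 CPM in Ex, and the T cell markers at 39.3 and 92.4 CPM in Sed and 148 and 139.8 CPM in Ex; their part in the result was not tested.

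**Figure D3:**
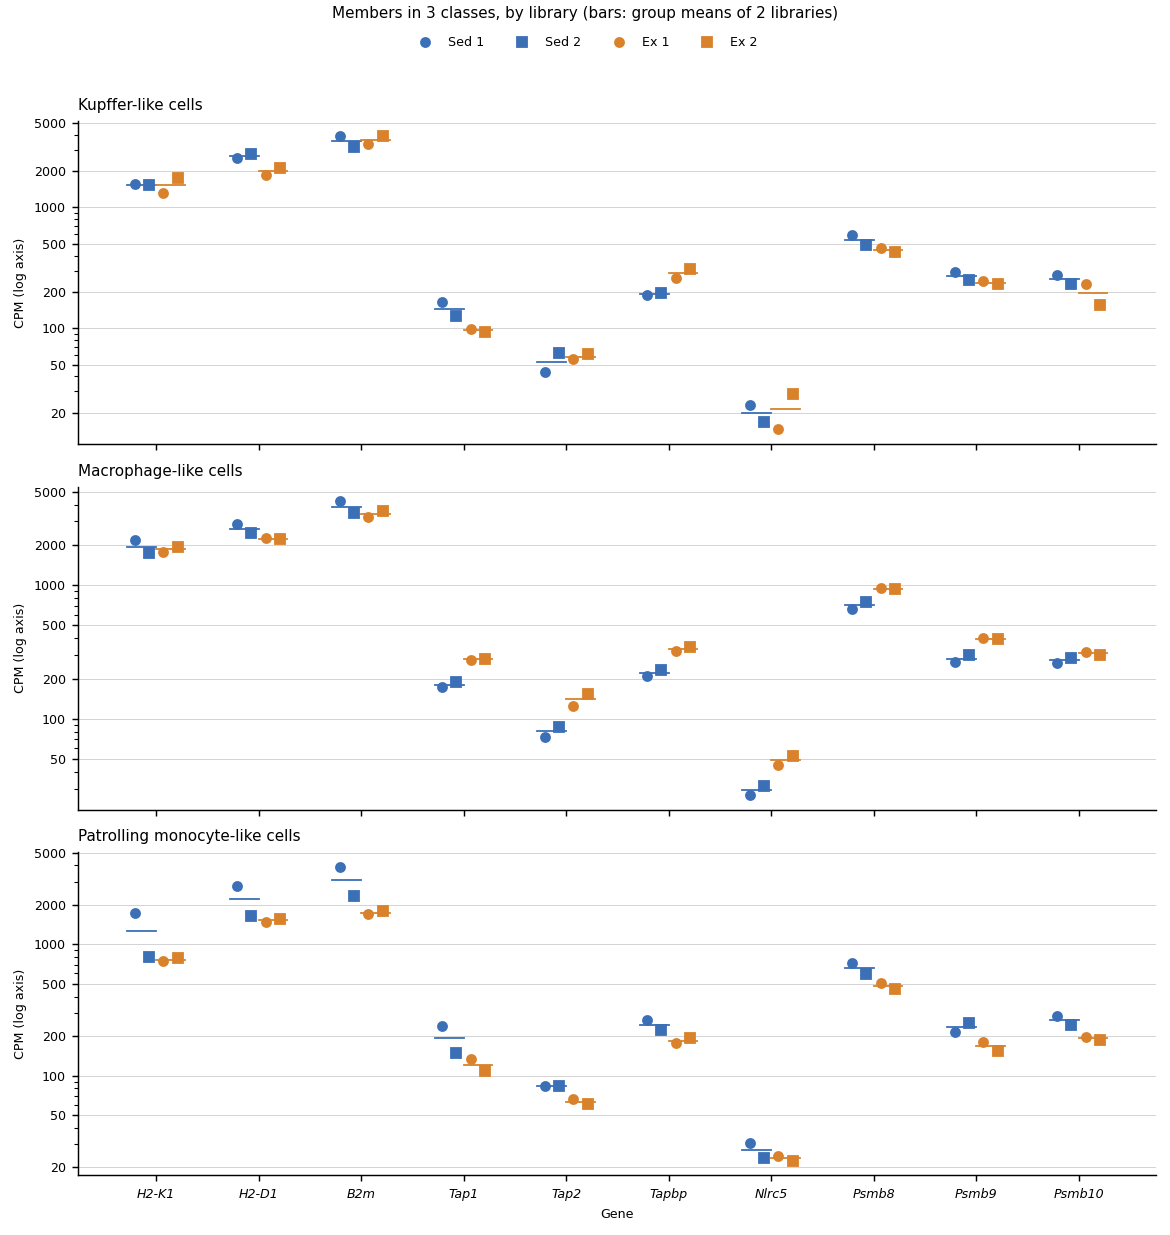
CPM (log axes) of the 10 genes in Kupffer-like, macrophage-like and patrolling monocyte-like cells, with 1 point per library (Sed blue, Ex orange) and bars at the mean of the 2 libraries of a group. In macrophage-like cells 7 genes lie higher in both Ex libraries, and in patrolling monocyte-like cells 9 lie lower.

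Patrolling monocyte-like cells, the monocytes that crawl along vessel walls, went the other way. In 9 of the 10 genes both Ex libraries lay below both Sed libraries, against 26.4% of all genes tested, and none lay above, against 18%. None was called by edgeR or DESeq2, against 1.15% of all 8859 genes in edgeR, and 4 had an unadjusted p under 0.05, against 12.3%. The median change of the members was -0.41, against -0.22 without Sed 1 and -0.53 without Sed 2. Without Sed 2, B2m changed by -1.12. B2m was at 3882 and 2327 CPM in Sed and 1712 and 1779.9 CPM in Ex, a change of -0.78 ± 0.25 (adjusted p = 0.271 in edgeR). Much of the gap for the chains came from Sed 1: H2-K1 was at 1719.7 CPM in Sed 1 and at 794, 743 and 789.8 CPM in Sed 2, Ex 1 and Ex 2, and H2-D1 at 2804, 1638, 1478 and 1567 CPM. For Psmb9, at 216 and 254 CPM in Sed and 181 and 153 CPM in Ex (-0.43 ± 0.18), and Psmb10, at 285 and 244 CPM in Sed and 198 and 188 CPM in Ex (-0.40 ± 0.17), Sed 1 did not stand apart. The class depended on the clustering. It held 263 and 471 cells in Sed and 660 and 321 in Ex, but 173 and 135 and 116 and 56 at resolution 0.5. The median change of the members there was -0.43. At resolution 2 Ex 2 held 29 cells, too few for a test. The summed neutrophil markers of the class were at 5029 and 1473 CPM in Sed and 281 and 374 CPM in Ex, and classical monocyte markers at 20557 and 17633 CPM in Sed and 10680.5 and 10727 CPM in Ex; their part in the result was not tested.

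Classical monocyte-like cells, the circulating monocytes recruited to inflamed tissue, numbered 1039 and 1009 in Sed but 65 and 48 in Ex. These numbers depended on the clustering, since at resolution 2 the class held 1129 and 1337 cells in Sed and 481 and 294 in Ex. The median change of the members was -0.45, against -0.29 at resolution 2, -0.11 without Sed 1 and -0.72 without Sed 2. In them 4 members lay below Sed, against 17.1% of all genes, and none lay above, against 22.4%. None was called by edgeR or DESeq2, against 0.0423% of all 9463 genes in edgeR, and 3 had an unadjusted p under 0.05, against 8.07%. Tapbp was at 231 and 183 CPM in Sed and 138 and 151 CPM in Ex, a change of -0.58 ± 0.23 (adjusted p = 0.564 in edgeR). Tap1 was at 184 and 109 CPM in Sed and 85.7 and 95.9 CPM in Ex, a change of -0.77 ± 0.29, and of -1.12 without Sed 2. H2-D1 and Psmb10 were the other 2 members below Sed.

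In endothelial-like cells Tap1 fell, the only call among the 110 comparisons. It was at 90.4 and 66.7 CPM in Sed 1 and Sed 2 and at 28.6 and 33.0 CPM in Ex 1 and Ex 2, so the lower Sed library was above both Ex libraries. The change was -1.45 ± 0.27 (adjusted p = 0.00558 in edgeR and 0.0130 in DESeq2), in a class where 10.6% of all 8948 genes were called. H2-D1 (-0.89 ± 0.30) and Psmb8 (-0.64 ± 0.21) also lay below Sed, against 19.7% of all genes, with adjusted p of 0.115 and 0.0790 in edgeR, and Tapbp lay above, against 37.4%. At an unadjusted p under 0.05 there were 3 members, against 24.7% of all genes. Without Sed 2, H2-K1, H2-D1, B2m and Psmb8 changed by -0.67, -1.31, -0.76 and -0.86. Over the 4 libraries left out in turn Tap1 changed by -1.77 to -1.19. The sums rested on 50 and 112 Tap1 UMIs in Sed and 30 and 79 in Ex. Free RNA made up 0.849% to 7.45% of the UMIs of this class, with the highest share in Sed 2, and its part in the Tap1 result was not tested.

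The endothelial-like class did not hold the same clusters in both groups, which touches each value above. A cluster of 128 and 340 cells was present in Ex alone, one of 57 and 169 cells in Sed had 1 and 4 cells in Ex, and only 1 cluster, with 40 and 113 cells in Sed and 200 and 299 in Ex, was shared. Within the shared cluster, chosen after the values were seen, Tap1 was at 91.8 and 72.0 CPM in Sed and 23.2 and 21.7 CPM in Ex, a change of -1.82 ± 0.50 (adjusted p = 0.0333 in edgeR). These values rest on fewer Tap1 UMIs than the sums of the class given above. H2-D1 fell there as well, from 2589 and 1684 CPM to 936 and 885 CPM (-1.29 ± 0.27, adjusted p = 0.00620 in edgeR). In that cluster 397 of 4361 genes were called. Over the class, erythroid markers summed to 28.9 and 23.8 CPM in Sed and 5054 and 6606 CPM in Ex, and classical monocyte markers to 497 and 643 CPM in Sed and 128 and 96.6 CPM in Ex; their part in the result was not tested.

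B-like cells numbered 761 to 1337 per library. Both heavy chains and the light chain lay below Sed by near amounts: H2-K1 was at 1282 and 1397 CPM in Sed and 1073 and 959 CPM in Ex (-0.52 ± 0.16), H2-D1 at 1515 and 1606 CPM in Sed and 1139 and 1198 CPM in Ex (-0.54 ± 0.15), and B2m at 1625 and 1639.7 CPM in Sed and 1179.8 and 1349 CPM in Ex (-0.49 ± 0.15). Their adjusted p values were 0.0886, 0.0675 and 0.0935 in edgeR, so none was called, where 2.12% of all 9017 genes were; 5 members had an unadjusted p under 0.05, against 17.8%, and DESeq2 called none. With Psmb8, Psmb9 and Psmb10, 6 members lay below Sed, against 17.1% of all genes, and Tapbp lay above, against 33.1%. Most Sed and most Ex B-like cells lay in different clusters. Within the cluster of 271 and 339 cells in Sed and 667 and 949 in Ex, H2-D1 (-0.53 ± 0.15, adjusted p = 0.0307) and B2m (-0.51 ± 0.15, adjusted p = 0.0408) fell in edgeR, with fits made after the values were seen. Within the other, of 1066 and 422 cells in Sed and 338 and 229 in Ex, neither was called, with H2-D1 at -0.45 ± 0.18 (adjusted p = 0.283 in edgeR) and B2m at -0.39 ± 0.18 (adjusted p = 0.367 in edgeR).

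Neutrophil-like cells had 5 members below Sed, against 11.8% of all genes, and 2 above, against 36%, with none called by edgeR or DESeq2 where edgeR called 0.388% of all 7472 genes. At an unadjusted p under 0.05 there were 4 members, against 15.8% of all genes. H2-K1 was at 949.7 and 546 CPM in Sed and 399.7 and 499.6 CPM in Ex, a change of -0.95 ± 0.27 (adjusted p = 0.145 in edgeR). Without Sed 2, H2-K1 and Tap1 changed by -1.29 and -0.87. Most neutrophil-like cells of Sed and of Ex came from different clusters: the largest had 1654 and 759 cells in Sed and 57 and 30 in Ex, and another 227 and 367 in Sed and 430 and 285 in Ex. Scaled by library totals, the median change of all genes was 0.23 in this class, the farthest from 0 among the tested classes.

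In T and NK cells the members were split by gene. CD4 T-like cells had Tap2, Tapbp, Nlrc5 and Psmb9 above Sed, against 25.8% of all genes, and Psmb8 below, against 15.4%. NK-like cells had Tapbp above and H2-D1, Psmb8 and Psmb10 below, against 31.6% and 15.9%. Psmb8 in NK-like cells was at 872 and 958 CPM in Sed and 712 and 526 CPM in Ex, a change of -0.69 ± 0.23 (adjusted p = 0.120 in edgeR). ILC1-like cells had 3 members above Sed and none below, against 30.1% and 15.6%, and the remaining T cells 2 above and 1 below, against 22.3% and 19.8%. None of the members was called in these 4 classes by edgeR or DESeq2, with 2 (CD4 T), 1 (NK), 0 (ILC1) and 1 (other T) at an unadjusted p under 0.05, against 9.76%, 15.8%, 11.2% and 12.2% of all genes, where edgeR called 0.576% (CD4 T), 0.983% (NK), 0.255% (ILC1) and 0.683% (other T) of all genes. The remaining T cells included a cluster of interferon genes with 6 and 2 cells in Sed and 152 and 28 in Ex, whose part in the result was not tested.

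**Figure D4:**
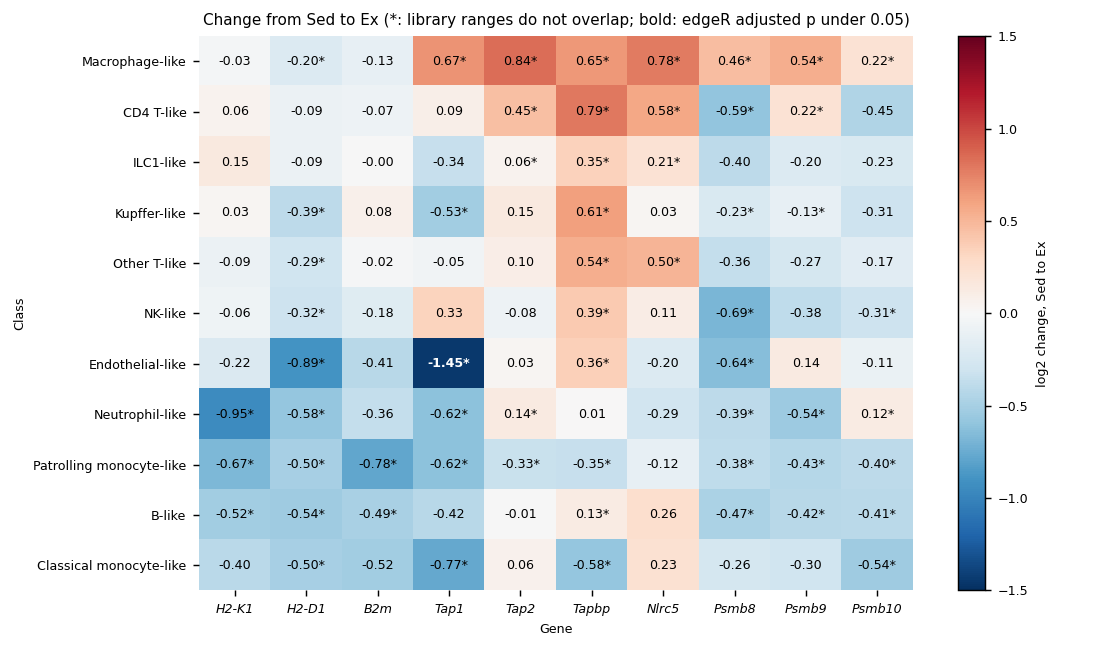
log2 change from Sed to Ex (colour and number) of each gene in the 11 tested classes, ordered by the median over the genes; an asterisk marks libraries that do not overlap between the groups and bold type an edgeR adjusted p under 0.05. The 1 bold value is Tap1 in endothelial-like cells, and the macrophage-like row is positive from Tap1 to Psmb10.

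Read by gene, several members kept one direction over most classes. H2-D1 had a negative change in 11 of 11 classes, with no overlap in 9, and Tapbp had a positive change in 9 of 11, with no overlap in 8. Within single classes, 11.8% to 29.2% of all genes lay below Sed without overlap and 17.0% to 37.4% above. The share of all genes that do so in as many classes was not computed, so how unusual these counts are is not known. Tapbp lay below Sed in the classical and patrolling monocyte-like cells. Scaled by library totals alone, which gave median changes of all genes from -0.07 to 0.23, H2-D1 was negative in 9 of 11, B2m and Psmb10 in 8 each and Tapbp positive in 9, and with DESeq2 size factors Tapbp was positive in 8. The 11 classes come from the same 4 libraries, so these are not 11 independent observations. Psmb8 had a negative change in 10 of 11 classes, with the macrophage-like cells as the exception, B2m in 10, Psmb10 in 9 and Tap1 in 8.

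Whether the change from Sed to Ex differed between classes was tested in 1 model over the 11 classes. Against Kupffer-like cells, 2 of 100 contrasts passed (edgeR, adjusted over 11817 genes), against 0.504% of all contrasts. The change of Tap1 in macrophage-like cells was higher than that in Kupffer-like cells by 1.27 ± 0.28 (adjusted p = 0.0213), where 0.575% of all genes were called. The change of Tapbp in classical monocyte-like cells differed from that in Kupffer-like cells by -1.25 ± 0.28 (adjusted p = 0.0346), where 0.262% were called. Tap1 passed the test in neither class by itself: the contrast set a change of 0.67 against one of -0.53. Neither contrast passed without Sed 1, Ex 1 or Ex 2, with doublets kept or at resolutions 0.5 and 2, with Tap1 differing by 0.84 to 1.37 and Tapbp by -1.27 to -0.82, and 6 contrasts passed without Sed 2.

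Against macrophage-like cells, a reference chosen after the values were seen, 9 of 90 contrasts passed (edgeR), all negative, against 1.04% of all contrasts. Tap1 differed by -2.03 in endothelial-like cells (adjusted p = 1.6e-05, 3.98% of all genes called), by -1.50 in classical monocyte-like cells (adjusted p = 0.00368, 0.406% called), by -1.41 in neutrophil-like cells (adjusted p = 0.00149, 3.6% called) and by -1.25 in patrolling monocyte-like cells (adjusted p = 0.0154, 0.245% called). Psmb8 and Psmb9 passed in neutrophil-like cells, Psmb8 in endothelial-like cells, Tapbp in classical monocyte-like cells and Tap2 in patrolling monocyte-like cells. No contrast of H2-K1, H2-D1, B2m, Nlrc5 or Psmb10 passed against either reference. Without Sed 2, 21 passed, without Sed 1 6, and without Ex 1, without Ex 2 or at resolution 2 only that of Tap1 in endothelial-like cells, which passed under all 10 alternatives with a difference of -2.37 to -1.37. Since the reference is shared, these contrasts are not independent of each other.

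Other genes of the pathway were counted by lists. Of 9 class Ib and class I-like genes tested in B-like cells, 3 fell and none rose: H2-Q7 from 407 and 379 CPM to 225 and 212 CPM (-0.97 ± 0.19, adjusted p = 0.00788 in edgeR), H2-T22 (-0.95 ± 0.20) and H2-Q4 (-0.89 ± 0.23). The median change of this list was -0.72, against -0.01 for all genes, and 8 of its 9 genes lay below Sed, against 17.1% of all genes. The related heavy chains H2-K1 and H2-D1 of the same cells could share reads with these genes, which was not tested. Irf9, a subunit of the type I interferon transcription complex, also fell there (-1.07 ± 0.22).

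In endothelial-like cells H2-T22 (-1.18 ± 0.30) and H2-T23 (-0.98 ± 0.22) fell and H2-T24 rose (1.48 ± 0.38) among 8 class Ib genes tested. Of 11 further subunits of the proteasome core, Psmb1 (-0.81 ± 0.20) and Psmb2 (-0.72 ± 0.19) fell, and all 11 lay below Sed, against 19.7% of all genes. Among 15 regulators tested there, Irf8 fell (-0.91 ± 0.21), while in CD4 T-like cells, among 12 regulators tested, Irf8 rose (2.15 ± 0.50). Of 77 tests of peptide loading and trimming genes over the 11 classes, 73 of proteasome activator and assembly genes and 33 of the constitutive catalytic subunits, edgeR and DESeq2 called none, and 9, 10 and 6 had an unadjusted p under 0.05 in edgeR, against 14.1% of all genes. In Kupffer-like cells no gene of the pathway lists was called by either tool, with 6 of 50 at an unadjusted p under 0.05, against 9.41% of all genes, and in macrophage-like cells none was called, with 13 of 54, against 14.5%.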

How the data were processed

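Single-cell RNA was measured in 4 libraries (2 Sed, 2 Ex). The authors deposited 1 matrix of UMI counts (genes by barcodes) from Cell Ranger, version 7.0.0 and builds mm10 and GRCm38 per the submitters' processing notes and version 6.1.1 per the file headers. Of 51140 columns, the 22615 without a barcode were not used. Barcode suffixes were taken to follow the order of libraries in the aggregation table, checked against changes along the columns (1, 2 and 33 cells away); whether the aggregation equalised depth is not given in the sources used here.

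Barcodes under 200 genes or over 10% mitochondrial UMIs were dropped, and the highest Scrublet scores (scanpy 1.11.5) were removed at 0.8% per 1000 cells, 144 to 462 cells a library, since its own threshold marked only 0.02% in each Ex library. Clusters (Leiden, leidenalg 0.10.2, resolution 1, 2000 variable genes without 64 genes of the pathway, 30 components, 15 neighbours) were named from marker lists. Counts were summed per class and library. Levels needed 10 cells in at least 2 libraries, and tests 30 cells in all 4. Sed and Ex were compared with edgeR 4.0.16 (R 4.3.3; quasi-likelihood, filterByExpr, TMM; Benjamini-Hochberg over all genes of a class; threshold 0.05), with DESeq2 1.42.0 beside it. Standard errors were derived from the fitted change and its F statistic. Classes were compared in 1 edgeR model with terms for library, class and class by group. Free RNA was estimated from B cell transcripts, except in B-like and plasma cell-like cells. The fits were also run on simulated data. Most 2-fold changes planted there for Kupffer-like cells were not called, so the absence of a call in that class does not show the absence of a change.

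The text names all 10 members, up to 3 called genes per direction, list and class, and the 3 genes most like each member among those with at least 20 CPM in a class. Members, lists and tests were chosen with earlier results of these data known. The alternatives were DESeq2 size factors, the DESeq2 test, no low-count filter, a stricter cell filter, at least 2000 UMIs, doublets kept, resolutions 0.5 and 2, members among the clustering genes, thinned sums, a replicate block and each library left out; single clusters and the macrophage-like reference were added after the data had been seen. Same-numbered libraries had correlated deviations of -0.070 to 0.18 over the classes.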

Additional observations from a re-analysis of the deposited data

Results flagged for a closer look

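The change of Tap1 from Sed to Ex differed between macrophage-like cells and 5 other classes by the test of the difference itself (edgeR). It was 1.27 higher (log2) in macrophage-like than in Kupffer-like cells, and against macrophage-like cells the difference was -2.03 in endothelial-like, -1.5 in classical monocyte-like, -1.41 in neutrophil-like and -1.25 in patrolling monocyte-like cells.

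The change of Tapbp in classical monocyte-like cells differed by -1.25 from that in Kupffer-like cells and by -1.36 from that in macrophage-like cells. Among the immune subunits, the change of Psmb8 differed from that in macrophage-like cells by -1.04 in endothelial-like and by -1.02 in neutrophil-like cells, and that of Psmb9 by -1.27 in neutrophil-like cells. The change of Tap2 differed by -1.17 in patrolling monocyte-like cells. Each of these differences passed an adjusted p of 0.05 over all genes in edgeR, and the macrophage-like reference was chosen after the values were seen.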

How the results depend on the processing

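Over 28 settings, single members were compared with the reported value 1716 times by class: 1684 stayed on their side of the threshold, 32 passed only under the alternative, and none was lost or turned while called, though 154 values that were never called changed sign. Members called over the 11 classes numbered 8 without the low-count filter, 2 with the stricter cell filter and 2 with doublets kept, and 1 to 17 with a library left out, 17 being without Sed 2. In Kupffer-like cells the count was 0 throughout, and the stricter cell filter left too few cells for a test. Equal numbers do not pair the libraries here; with a replicate block, 4 members were called in place of 1. The contrasts passed against Kupffer-like cells numbered 1 with the stricter cell filter (where Ex 2 had 25 Kupffer-like cells, under the 30 asked for elsewhere), 0 with doublets kept, 0 at resolution 0.5, 0 at resolution 2, and 0 to 6 with a library left out. Against macrophage-like cells they numbered 15 with DESeq2 size factors, 14 without the low-count filter, 3 at resolution 0.5, 1 at resolution 2, and 1 to 21 with a library left out. In Kupffer-like cells the Ex minus Sed difference of the Psmb8 share (-1.40 percentage points) became 1.30 with at least 2000 UMIs, 1.14 with doublets kept and 0.79 at resolution 0.5, and that of Psmb10 (-1.71) became 2.32 at resolution 2. Over these alternatives the differences ran from -8.37 to 1.30 for Psmb8, from 0.53 to 3.99 for Psmb9 and from -15.8 (with the stricter cell filter) to 2.32 for Psmb10. With a library left out, the differences ran from -3.21 to 0.40 for Psmb8, from -1.03 to 2.39 for Psmb9 and from -4.05 to 0.64 for Psmb10. The cause of these shifts was not tested. With a library left out, its group keeps 1 sample, assumed to vary like the other group. In Kupffer-like cells of Ex 2, 106 cells limit what can be detected.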
